A study of Mus musculus with 16 samples.

Results

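The genes that mark neutrophils and fill their granules were followed in the left ventricle of PKM2fl/fl and PKM2-/- mice by bulk RNA sequencing. The 10 genes were taken by symbol from the deposited gene table, and all 10 were among its 55492 genes. They were read as 5 genes of the mature cell (Csf3r, Retnlg, Padi4, Ly6g and Trem1) and 5 genes of granules that are filled early, while the cell still develops in the bone marrow (Mpo, Elane, Ngp, Camp and Ltf). The question was how far each class was present in the unoperated, sham-operated and infarcted heart, and whether loss of PKM2 changed it.

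The 16 hearts came from male C57BL/6 mice aged 8 to 12 weeks, with 1 library per heart. PKM2fl/fl mice carried loxP-flanked Pkm alleles and served as controls. PKM2-/- mice descended from a cross of PKM2fl/fl with CMV-Cre mice that deleted exon 10 of Pkm in the germline, after which the Cre allele was bred out, so PKM2 was missing from all cells, neutrophils included. In each genotype 2 hearts had no surgery (baseline), 3 hearts were taken 3 days after sham surgery without ligation, and 3 hearts were taken 3 days after permanent ligation of the left anterior descending artery to cause a myocardial infarction (MI). The tissue was flash frozen and pulverized as a whole, so infarct, border and remote muscle were not separated.

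Neutrophils are made in the bone marrow, where progenitors transcribe the genes of azurophil granules first and those of specific granules next, and the granule proteins are then carried to the tissue in finished form. A neutrophil in tissue therefore holds the proteins of its granules with little of their messenger RNA, and its own transcription is that of receptors, cytosolic proteins and late granule proteins. After coronary ligation neutrophils are the first leukocytes to enter the infarct in number, and monocytes and macrophages follow.

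Pkm, the targeted gene, was read first. Its normalized count (reads after scaling by a size factor for each library) was 9355 ± 349 (SD, n = 2) at baseline, 8662 ± 837 (n = 3) after sham surgery and 10737 ± 1259 (n = 3) after MI in PKM2fl/fl hearts. The PKM2-/- groups gave 12482 ± 709 (n = 2), 13050.1 ± 1272 (n = 3) and 12594 ± 3130.2 (n = 3). The count takes in every exon of the gene, and so it does not check the loss of exon 10. The libraries held 20623769 to 71855101 reads, of which 15.85 to 46.14% fell on 5 genes that collect ribosomal RNA reads. At baseline this share was 17.26 to 22.14% in PKM2fl/fl and 39.79 to 43.92% in PKM2-/- hearts. After sham surgery it was 15.85 to 27.82% and 28.68 to 46.14%. After MI the genotypes overlapped, at 19.85 to 44.75% and 16.06 to 34.54%. The part of this share in the genotype comparisons was not tested. A count of 3 reads, taken as the floor, was worth 1.47 to 5.5 normalized counts. Sequencing was paired-end, and 65.6% of the values of 1 to 20 reads were even numbers against 50.6% of those above 100 reads. Whether both mates of a fragment were counted is not given in the sources used here and was not tested, and the intervals given here treat every read as independent.

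The promoter windows of 4 of the genes are shown because they belong to the 3 mature genes that could be tested, Csf3r, Retnlg and Padi4, and to Ngp. Ngp was the early gene with the highest normalized count in any 1 library, while Ltf and Camp had more reads in total. Each window holds 300 bases, 5′ to 3′ on the gene's strand (GRCm38.p6, the mm10 build of the deposited table), at chr4:126024409-126024708 (+) for Csf3r, chr16:48872358-48872657 (+) for Retnlg, chr4:140774154-140774453 (-) for Padi4 and chr9:110419558-110419857 (+) for Ngp. For Retnlg and Ngp it runs from 250 bases before to 50 bases after the RefSeq gene start. For Csf3r and Padi4 the window is not set on the outer RefSeq gene start, which is 126023441 and, on the minus strand, 140774239. The Csf3r window thus lies wholly inside the gene, and which transcript start these windows follow was not tested. Capital letters mark matches to a PU.1 motif (GAGGAAG) or a C/EBP motif (TTGCNNAA), searched on both strands.
Csf3r: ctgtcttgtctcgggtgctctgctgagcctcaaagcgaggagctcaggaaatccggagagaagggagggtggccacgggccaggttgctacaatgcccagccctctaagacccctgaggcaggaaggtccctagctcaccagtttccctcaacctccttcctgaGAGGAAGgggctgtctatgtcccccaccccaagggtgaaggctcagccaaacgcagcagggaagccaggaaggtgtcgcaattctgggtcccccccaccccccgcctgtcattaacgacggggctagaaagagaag
Retnlg: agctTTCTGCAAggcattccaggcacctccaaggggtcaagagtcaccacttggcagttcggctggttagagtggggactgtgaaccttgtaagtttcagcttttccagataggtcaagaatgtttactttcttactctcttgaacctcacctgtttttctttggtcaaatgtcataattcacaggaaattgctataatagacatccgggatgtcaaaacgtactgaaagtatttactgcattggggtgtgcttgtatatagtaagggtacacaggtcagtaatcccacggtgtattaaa
Padi4: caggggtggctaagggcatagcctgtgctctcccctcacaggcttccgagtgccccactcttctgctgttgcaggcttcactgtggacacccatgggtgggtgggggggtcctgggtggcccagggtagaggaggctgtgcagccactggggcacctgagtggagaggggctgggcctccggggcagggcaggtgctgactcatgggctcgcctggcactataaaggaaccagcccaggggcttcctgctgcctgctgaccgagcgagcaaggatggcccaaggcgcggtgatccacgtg
Ngp: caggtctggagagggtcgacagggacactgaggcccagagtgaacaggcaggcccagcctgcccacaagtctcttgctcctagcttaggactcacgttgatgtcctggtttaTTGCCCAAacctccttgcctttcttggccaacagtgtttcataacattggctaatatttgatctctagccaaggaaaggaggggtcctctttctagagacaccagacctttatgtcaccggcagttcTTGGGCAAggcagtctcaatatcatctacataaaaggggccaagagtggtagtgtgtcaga
PU.1, the C/EBP proteins and RUNX1, whose core motif was searched as TGTGGT, are transcription factors of the granulocyte line. Members were counted by gene, and Ly6g, which had 2 windows, counted once if either held a match. The shares over all genes were counted by window. The PU.1 letters stood in the windows of 4 of the 10 members (Ly6g, Csf3r, Mpo and Elane) and in 13.6% of the 32851 windows of all genes. The C/EBP letters stood in 4 of the 10 (Ly6g, Retnlg, Ngp and Ltf) against 10.8% of all windows, and the RUNX letters in 1 of the 10 (Ltf) against 16.8%. Both classes of member held matches, with the PU.1 letters in 2 of 5 mature and 2 of 5 early genes and the C/EBP letters in the same numbers. A match describes the letters of the window and does not show that a factor bound there.

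Csf3r was the member with the most reads. It encodes the receptor for granulocyte colony-stimulating factor, the main growth factor of the neutrophil line, and it is also transcribed in some monocytes. In PKM2fl/fl hearts its normalized counts were 51.0 and 108.1 at baseline, 323.1, 462.9 and 110.8 after sham surgery and 1179, 787.6 and 1270.0 after MI. In PKM2-/- hearts they were 96.7 and 58.6 at baseline, 321.5, 360.4 and 313.9 after sham surgery and 1582, 1739 and 2124 after MI. Every MI heart stood above every sham heart of its genotype, as was the case for 30.0% of all tested genes in PKM2fl/fl and 31.7% in PKM2-/- hearts, and the third PKM2fl/fl sham heart stood at the baseline level rather than with the other two.

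Padi4 encodes a peptidylarginine deiminase that citrullinates histones when neutrophils release their chromatin as extracellular traps. Its normalized counts in PKM2fl/fl hearts were 25.9 and 15.3 at baseline, 30.6, 28.7 and 15.2 after sham surgery and 111.3, 98.6 and 557.9 after MI. The PKM2-/- hearts gave 12.8 and 18.3, then 12.9, 28.7 and 27.0, then 79.4, 112.4 and 150.0. The sham hearts overlapped the baseline hearts in both genotypes, and the MI hearts stood above the sham hearts. The same held for 30.0% of all tested genes in PKM2fl/fl and 31.7% in PKM2-/- hearts. The third PKM2fl/fl MI heart was far above the other 15 libraries, and the other PKM2fl/fl MI hearts lay within the range of the PKM2-/- MI hearts.

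Retnlg encodes resistin-like gamma, a small secreted protein that marks mature blood neutrophils. In PKM2fl/fl hearts its normalized counts were 3.1 and 6.6 at baseline, 94.6, 63.6 and 6.9 after sham surgery and 40.2, 21.4 and 20.1 after MI. The PKM2-/- hearts gave 4.7 and 3.7 at baseline, 48.2, 70.5 and 113.3 after sham surgery and 86.7, 71.1 and 119.7 after MI. The gene thus stood as high after sham surgery as after MI in PKM2-/- hearts, and all 3 PKM2-/- MI hearts lay above all 3 PKM2fl/fl MI hearts. The same order of genotypes held for 10.7% of all tested genes, and the limma adjusted p of this difference in Retnlg was 0.207. As with Csf3r, the third PKM2fl/fl sham heart was at the baseline level.

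Ly6g, whose product is the surface protein used to sort mouse neutrophils, was scarcely detected. It was at 0 in all 4 baseline hearts and between 0 and 9.6 normalized counts in the 12 operated hearts, with at most 6 reads in any library. Trem1, an activating receptor of neutrophils and monocytes, was listed at 0 in all 16 libraries. Whether Trem1 could be counted at all was not tested, so the 0 is not read as absence, and it enters the mean of the mature genes given further on as the same 0 in every heart. The other neutrophil markers checked, S100a8, S100a9 and Cxcr2, were well above the floor in all 6 MI hearts, with Cxcr2 between 130.7 and 522.2 normalized counts.

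The early granule genes were near the floor throughout. Mpo (myeloperoxidase) and Elane (neutrophil elastase), the enzymes of azurophil granules, had 22 reads and 1 read over all 16 libraries, and neither passed 6.2 normalized counts in any heart. Camp, the precursor of the antimicrobial peptide cathelicidin, lay between 0 and 11.3 normalized counts, with 9.3 in a baseline heart and no higher level in any MI heart. Ngp (neutrophilic granule protein) and Ltf (lactoferrin, an iron-binding protein of specific granules) reached their highest normalized counts in the same 2 hearts, PKM2-/- sham 2 with 22.2 and 20.9 and PKM2-/- MI 1 with 23.5 and 15.4. In the other 14 libraries Ngp stayed at or below 6.4 and Ltf at or below 10.2. Camp, Ngp and Ltf lie within 1.2 megabases of each other on chromosome 9, 50.2 megabases from Pkm.

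**Figure D1:**
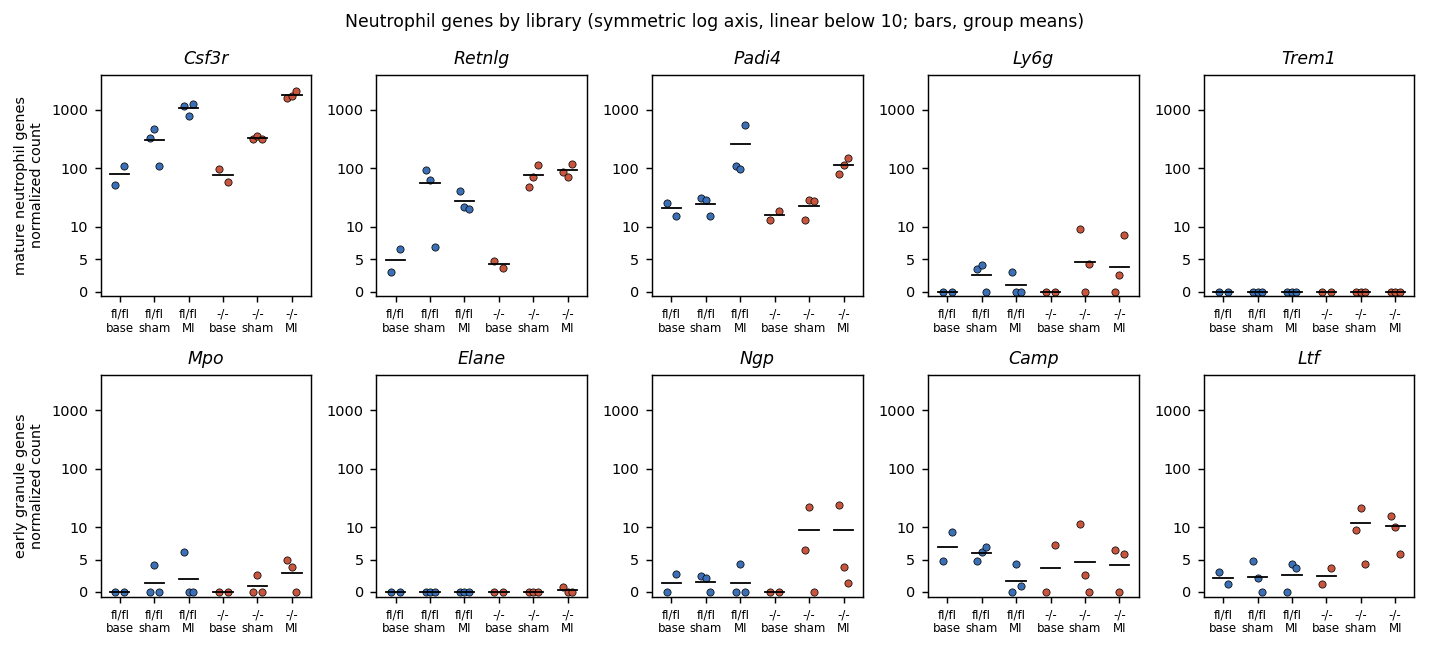
Normalized count (vertical axis, symmetric log scale, linear below 10) of the 10 genes in the 16 libraries, grouped by genotype (blue, PKM2fl/fl; red, PKM2-/-) and condition, with points for hearts and bars for group means. Csf3r and Padi4 are highest after MI, Retnlg is raised after sham surgery as well, and the early granule genes of the lower row stay at or below 23.5.

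Per kilobase of exon, which allows levels of different genes to be compared, Csf3r led after MI with 212 ± 50.3 normalized counts (SD, n = 3) in PKM2fl/fl and 356 ± 54.7 (n = 3) in PKM2-/- hearts. Padi4 followed in PKM2fl/fl hearts at 45.2 ± 46.2, which did not stand apart from Retnlg at 25.2 ± 10.4. In PKM2-/- hearts Retnlg came second at 85.5 ± 22.9 and Padi4 next at 20.1 ± 6.24, and their hearts did not overlap. Every early gene was at or below 7.0 normalized counts per kilobase in the group means after MI, with Ngp and Camp at the upper end. Of the mature genes, Ly6g lay among the early genes, at 1.07 ± 1.85 in PKM2fl/fl and 3.88 ± 4.62 in PKM2-/- hearts. It was below Camp at 1.99 and 4.68, and Trem1 was at 0.

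The mean level of the 5 mature genes, on the log2(normalized count + 1) scale, ran from 2.48 to 2.75 in the 4 baseline hearts and from 4.15 to 5.7 in the 6 MI hearts. The mean of the 5 early genes ran from 0.22 to 1.29 at baseline and from 0.57 to 2.99 after MI. The early mean minus the mature mean was -1.52 ± 0.09 (SD, n = 2) at baseline, -2.65 ± 0.46 (n = 3) after sham surgery and -3.72 ± 0.88 (n = 3) after MI in PKM2fl/fl hearts. The PKM2-/- groups gave -1.89 ± 0.66 (n = 2), -2.54 ± 1.33 (n = 3) and -3.18 ± 1.35 (n = 3). The fall from baseline to MI left no overlap between PKM2fl/fl hearts, whereas in PKM2-/- hearts the first MI heart, at -1.69, lay within the baseline range. MI and sham hearts overlapped in both genotypes. The range was -4.31 to -2.71 after MI against -3.06 to -2.16 after sham surgery in PKM2fl/fl hearts. In PKM2-/- hearts it was -4.33 to -1.69 against -3.99 to -1.37.

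As a share of all reads on the members, early genes gave 8.93% (95% Wilson interval 4.92 to 15.7%) and 9.26% (6.07 to 13.9%) in the PKM2fl/fl baseline hearts. The shares were 0.461% (0.18 to 1.18%), 1.4% (0.801 to 2.43%) and 0.247% (0.105 to 0.576%) in the PKM2fl/fl MI hearts. They were 2.53% (1.65 to 3.88%), 2.5% (1.5 to 4.16%) and 4.91% (2.95 to 8.08%) in the PKM2fl/fl sham hearts, so the MI hearts of this genotype lay below its other hearts. The PKM2-/- baseline hearts gave 1.01% (0.179 to 5.5%) and 12.0% (5.62 to 23.8%), on 1 and 6 early reads. The PKM2-/- sham hearts gave 6.51% (4.11 to 10.2%), 9.51% (6.98 to 12.8%) and 0.932% (0.363 to 2.37%). The PKM2-/- MI hearts gave 2.84% (2.23 to 3.62%), 0.915% (0.634 to 1.32%) and 0.538% (0.283 to 1.02%), a range that took in 1 of the baseline and 1 of the sham hearts of that genotype. The PKM2fl/fl baseline shares rest on 10 and 20 early reads, and the intervals cover counting error only.

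**Figure D2:**
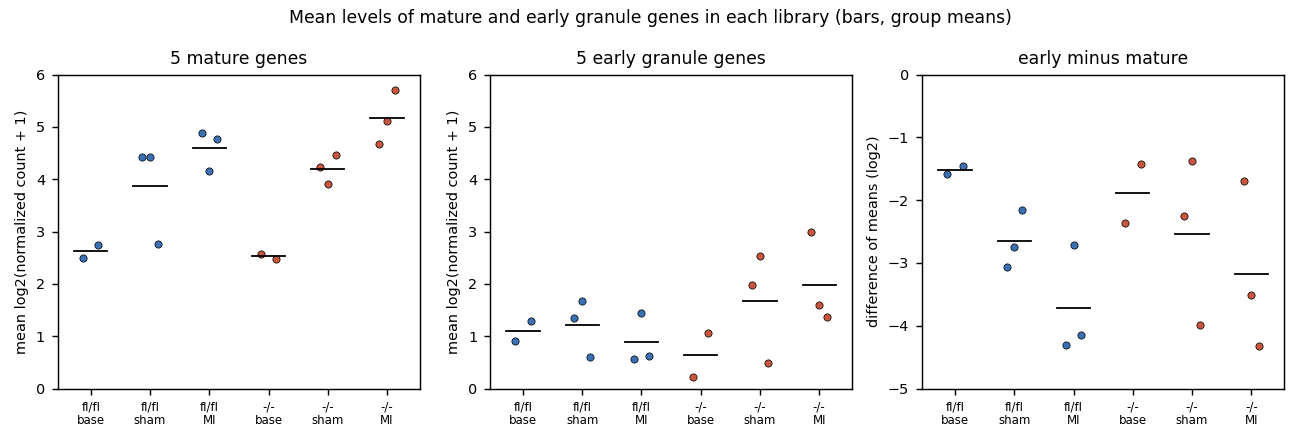
Mean log2(normalized count + 1) of the 5 mature genes, of the 5 early granule genes, and their difference (early minus mature), each by genotype and condition, with points for hearts and bars for group means. The mature mean rises from 2.48 to 2.75 at baseline to 4.15 to 5.7 after MI, and the early mean stays below 3 in every heart.

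MI was compared with sham surgery within each genotype. Of the 10 members, 3 (Csf3r, Retnlg and Padi4) reached a mean normalized count of 10 over all libraries and entered the test, and each of the 3 also reached it over the 10 libraries without MI. In PKM2fl/fl hearts Csf3r rose 4.13-fold (log2 2.05 ± 0.40 SE, limma adjusted p = 6.06e-04) and Padi4 rose 7.44-fold (log2 2.89 ± 0.55 SE, limma adjusted p = 4.33e-04). Retnlg was at log2 -0.44 ± 0.68 SE (limma adjusted p = 0.621), with a 95% interval from -1.9 to 1.02. A gene passed the test when its change was 2-fold or more and its adjusted p was below 0.05. In this comparison 23.5% of the 20576 tested genes passed, and 12.4% passed upwards. Without the third PKM2fl/fl sham heart the rise of Csf3r was log2 1.45, and without the third PKM2fl/fl MI heart that of Padi4 was log2 2.09 or 4.26-fold, both still past the test. Retnlg moved with single libraries in opposite directions. Without the third PKM2fl/fl sham heart it was lower after MI, at log2 -1.55 (limma adjusted p = 0.01). Without the first PKM2fl/fl sham heart its sign turned, at log2 0.26 (limma adjusted p = 0.79). In a bulk sample, fewer cells of a type and less RNA per cell cannot be told apart.

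In PKM2-/- hearts the same 2 members passed the test. Csf3r rose 5.42-fold (log2 2.44 ± 0.40 SE, limma adjusted p = 1.02e-04) and Padi4 rose 4.93-fold (log2 2.30 ± 0.55 SE, limma adjusted p = 0.00211). Retnlg was at log2 0.31 ± 0.68 SE (limma adjusted p = 0.724), with an interval from -1.15 to 1.77. Here 28.8% of the tested genes passed, 14.5% upwards. Without the filter on low values 9 members could be fitted, and no early gene passed the test in either genotype. Camp was the early gene whose groups did not overlap, lower after MI in PKM2fl/fl hearts at log2 -1.66 ± 1.02 SE (limma adjusted p = 0.298), on at most 14 reads per heart, and 29.0% of all tested genes were lower without overlap.

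Other genes of the neutrophil programme were read from 4 lists. The share of all tested genes that rose after MI was 12.4% in PKM2fl/fl and 14.5% in PKM2-/- hearts. Of 9 tested genes of specific and gelatinase granules, 6 rose in PKM2fl/fl and 7 in PKM2-/- hearts, with median log2 changes of 1.94 and 2.17 against medians near 0 over all genes. Lcn2 and Pglyrp1 passed the test in neither genotype, at 1.34- and 0.736-fold in PKM2fl/fl and 1.85- and 1.66-fold in PKM2-/- hearts. Chil3, a chitinase-like protein that macrophages also make, rose 24.6-fold (adjusted p = 7.33e-05) and 51.9-fold (adjusted p = 7.63e-06). Mmp9, the gelatinase, rose 5.15-fold and 8.68-fold, and Cd177, a surface partner of proteinase 3, rose 6.75-fold and 4.50-fold, the latter on values of 64.9 or below. In PKM2fl/fl hearts single libraries moved these values: Mmp9 was 8.69-fold without the second sham heart and 2.99-fold without the third, and Cd177 was 11.8-fold and 3.51-fold without the same hearts. Chil3 was 40.2-fold without the second PKM2fl/fl MI heart and 34.3-fold without the third PKM2-/- sham heart. Cd177 reached the filter on low values only through the MI hearts, and of the 8 genes that reached it over the libraries without MI, 5 rose in PKM2fl/fl and 6 in PKM2-/- hearts. Cybb, the membrane subunit of the phagocyte oxidase, rose 3.84-fold and 3.39-fold, and it is shared with macrophages.

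In MI against sham 12.4% of the 20576 tested genes rose and 2279 fell in PKM2fl/fl hearts. The PKM2-/- hearts gave 14.5% and 2949. Of 17 tested surface and cytosolic genes, 7 rose and 2 fell in PKM2fl/fl hearts, and 12 rose and 2 fell in PKM2-/- hearts. Of the 13 that reached the filter without the MI hearts, 7 and 9 rose. S100a8 and S100a9 did not pass the test in either genotype. They were 1.38- and 1.35-fold higher in PKM2fl/fl hearts (limma adjusted p = 0.584 and 0.576), where MI and sham hearts overlapped. In PKM2-/- hearts they were 2.89- and 2.56-fold higher (limma adjusted p = 0.0593 and 0.0681). Clec4d and Clec4e, lectin receptors of myeloid cells, rose 8.84-fold and 6.15-fold in PKM2fl/fl and 11.4-fold and 11.2-fold in PKM2-/- hearts. Without the third PKM2fl/fl sham heart their PKM2fl/fl values were 4.99-fold and 4.06-fold. Il1r2, the interleukin-1 decoy receptor, rose 4.43-fold and 11.2-fold, and Ptafr, the receptor for platelet-activating factor, rose 4.48-fold and 5.38-fold. The genes that fell in both genotypes were G0s2, an inhibitor of lipolysis that heart muscle and fat express as well, and Ccrl2, an atypical chemerin receptor that endothelium also expresses. They were named after their values were seen.

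Of the 6 azurophil granule and progenitor genes besides Mpo and Elane, 2 (Prss57 and Prtn3) were tested. Prss57, a serine protease of azurophil granules, stood at 28.9 to 46.4 normalized counts in PKM2fl/fl sham hearts and 156.5 to 196.3 after MI, and rose 4.41-fold (adjusted p = 1.20e-05). Prtn3, proteinase 3, had 6.2, 16.1 and 75.0 normalized counts in the PKM2fl/fl MI hearts, and its call (adjusted p = 0.0432) was lost when any of 7 libraries was left out, with adjusted p up to 0.139. Its PKM2-/- call was lost without the second or the third PKM2-/- sham heart (limma adjusted p = 0.104 and 0.106). Prtn3 reached the filter only through the MI hearts, so its rise is partly fixed by that choice. Without the first PKM2fl/fl MI heart it was 10.1-fold, and without the first PKM2-/- sham heart 16.8-fold. Ctsg (cathepsin G), another protease of these granules, was listed at 0 in all libraries, and as for Trem1 it was not tested whether it could be counted.

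Against 12.4% of all tested genes in PKM2fl/fl and 14.5% in PKM2-/- hearts, 6 of 7 tested genes for neutrophil-recruiting chemokines and cytokines rose in both genotypes. Of these, Cxcl2, Cxcl3 and Tnf reached the filter only through the MI hearts where they were high, and of the 4 genes that reached it without them, 3 rose in both genotypes. Cxcl3 rose 20.4-fold and 62.8-fold from sham values that were 0 in 4 of the 6 hearts, so these folds depend on the pseudocount. They also moved with 1 library, to 41.1-fold without the second PKM2fl/fl sham heart, 30.7-fold without the second PKM2fl/fl MI heart and 133-fold without the third PKM2-/- sham heart. Cxcl5 rose 9.94-fold and 12.7-fold, Cxcl2 7.49-fold and 23.6-fold, and Ppbp, which platelets carry, 9.10-fold and 18.5-fold. Without the second PKM2fl/fl sham heart Cxcl5 was 16-fold higher. These chemokines bind Cxcr2, the receptor that draws neutrophils into tissue, whose own normalized counts were 185.5, 130.7 and 258.8 in the PKM2fl/fl MI hearts against 87.0, 98.5 and 15.7 after sham surgery.

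Markers of other cells moved with the same comparison, in which 12.4% of all tested genes rose in PKM2fl/fl and 14.5% in PKM2-/- hearts. Of 10 macrophage and monocyte markers 8 rose in PKM2fl/fl and 9 in PKM2-/- hearts, and their summed level went from 7176 to 12140 normalized counts after sham surgery to 24670 to 36720 after MI in PKM2fl/fl hearts and from 8934 to 11820 to 31120 to 36340 in PKM2-/- hearts. Ccr2, the receptor of recruited monocytes, rose 9.87-fold and 14.6-fold. Of 6 cardiomyocyte genes 5 fell in PKM2fl/fl and 6 in PKM2-/- hearts, as did 2279 and 2949 of all 20576 tested genes. Siglecf was the 1 eosinophil marker of 7 that reached the filter, and it did so only through the MI hearts, at 47.2 to 85.1 normalized counts against at most 7.6 in the other libraries. The part of these cells in the rise of Csf3r, Padi4 and the wider lists was not tested.

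**Figure D3:**
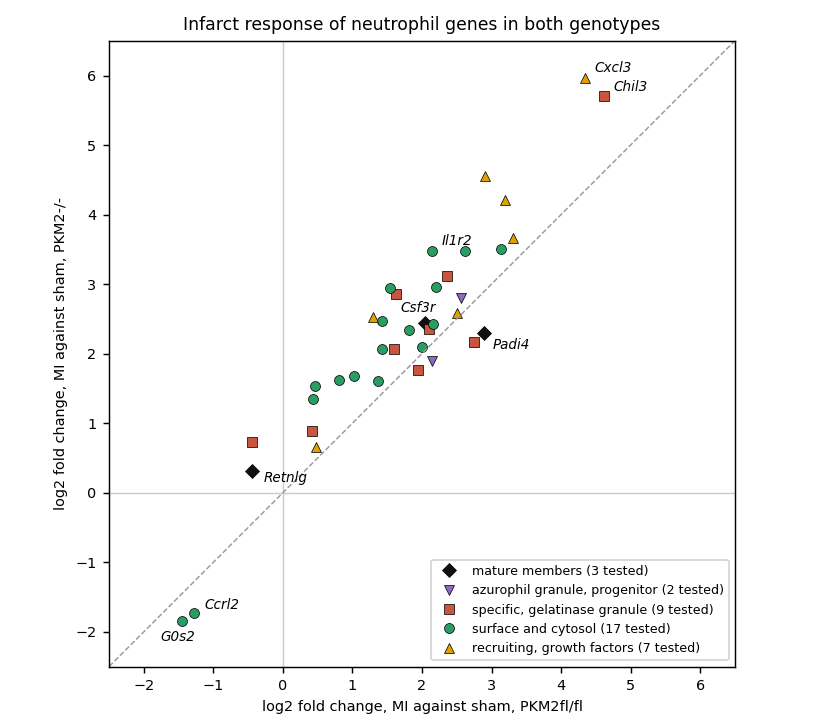
Log2 fold change of MI against sham in PKM2fl/fl hearts (horizontal axis) and in PKM2-/- hearts (vertical axis) for the tested members and the tested genes of 4 neutrophil lists, with the dashed line marking equal change. Csf3r and Padi4 lie at 2.05 and 2.89 on the horizontal axis, Retnlg lies near 0 on both axes, and G0s2 and Ccrl2 are the genes below 0 on both.

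The genotypes were compared after MI to ask whether loss of PKM2 changed the neutrophil response. None of the 3 tested members passed the test by limma, against 0.413% of all tested genes. At an unadjusted p under 0.05 there was 1, Retnlg. In the count models, edgeR with its own count filter and DESeq2 called none, and edgeR without a filter called 2. Retnlg was 3.4-fold higher in PKM2-/- hearts (log2 1.76 ± 0.68 SE, limma adjusted p = 0.207), with an interval from 0.31 to 3.22. It passed the test when counts were scaled to library totals (log2 2.13, limma adjusted p = 0.0478), a scaling under which the median of all genes was log2 0.36 higher in PKM2-/- hearts. Csf3r was 1.70-fold higher (log2 0.77 ± 0.40 SE, limma adjusted p = 0.349), with an interval from -0.09 to 1.62. For both genes the 3 PKM2-/- hearts lay above the 3 PKM2fl/fl hearts, as was the case for 10.7% of all tested genes.

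Padi4 went the other way, at log2 -0.73 ± 0.55 SE (limma adjusted p = 0.531), with an interval from -1.89 to 0.44. That sign came from the third PKM2fl/fl MI heart, since without it the difference was log2 0.07 (limma adjusted p = 0.938). The intervals of all 3 genes therefore include differences of more than 2-fold, and the test does not show that the genotypes were alike. With the filter off, Ltf was the 1 early gene without overlap, at 15.4, 10.2 and 5.8 normalized counts in PKM2-/- against 0, 4.3 and 3.7 in PKM2fl/fl MI hearts (limma adjusted p = 0.365). Of all tested genes, 10.7% were higher without overlap.

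In 3 of the 4 wider lists most genes had a higher estimate in PKM2-/- MI hearts, and 1 gene passed the test. Of the 2 azurophil and progenitor genes 1 was positive, with a median of 0.02. Among the 17 surface and cytosolic genes 16 had a positive log2 difference, the median was 1.45 against 0 over all tested genes, and 11 did not overlap between genotypes. Of all tested genes, 10.7% were higher in PKM2-/- MI hearts without overlap. After sham surgery 15 of these 17 were already positive with a median of 0.58, and their median in the interaction was 0.66. Only Il1r2 passed the test in that list. Its normalized counts were 320.0, 175.7 and 588.1 in PKM2fl/fl and 2385, 1808 and 1985 in PKM2-/- MI hearts, a 6.35-fold difference (log2 2.67 ± 0.48 SE, limma adjusted p = 0.0289) that lost its call when any of 5 of the 6 MI hearts was left out, with adjusted p of 0.0621 to 0.116.

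S100a8 and S100a9, the subunits of calprotectin, which is abundant in the neutrophil cytosol, showed the same order without passing. S100a8 had 262.8, 134.0 and 280.8 normalized counts in PKM2fl/fl against 734.5, 506.2 and 748.7 in PKM2-/- MI hearts (3.03-fold, limma adjusted p = 0.232). S100a9 differed 3.42-fold (limma adjusted p = 0.151) and Cxcr2 2.44-fold (limma adjusted p = 0.226), in each case without overlap, as was the case for 10.7% of all tested genes. Of the 9 specific and gelatinase granule genes 8 were positive with a median of 1.06 and none passed (after sham surgery 7 of 9 with a median of 0.60, and a median of 0.47 in the interaction), and of the 7 recruiting genes 6 were positive with a median of 1.47 and none passed (after sham surgery 4 of 7 with a median of 0.08, and a median of 1.03 in the interaction). Among the chemokines Cxcl5 differed 2.76-fold (limma adjusted p = 0.138) and Cxcl3 3.25-fold (limma adjusted p = 0.377), again with no overlap. Without the second PKM2fl/fl MI heart Cxcl3 differed 2.16-fold.

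The 10 macrophage and monocyte markers had a median log2 difference of 0.22, and 8 of them were positive. Without overlap, 3 of the 10 were higher in PKM2-/- hearts, as were 10.7% of all tested genes. None of the 10 markers passed. Their summed level was 24670 to 36720 normalized counts in PKM2fl/fl and 31120 to 36340 in PKM2-/- MI hearts. The 6 cardiomyocyte genes had a median of -0.44, and their summed level was 354100, 323900 and 148400 in the order of size in PKM2fl/fl hearts against 156300 to 224100 in PKM2-/- hearts, so 1 PKM2fl/fl heart held as little cardiomyocyte signal as the PKM2-/- hearts. Platelet genes were higher by a median of 0.80, with summed levels of 962.3 to 1271 and 1581 to 2493 that did not overlap. Their part in the genotype difference of the neutrophil genes was not tested.

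**Figure D4:**
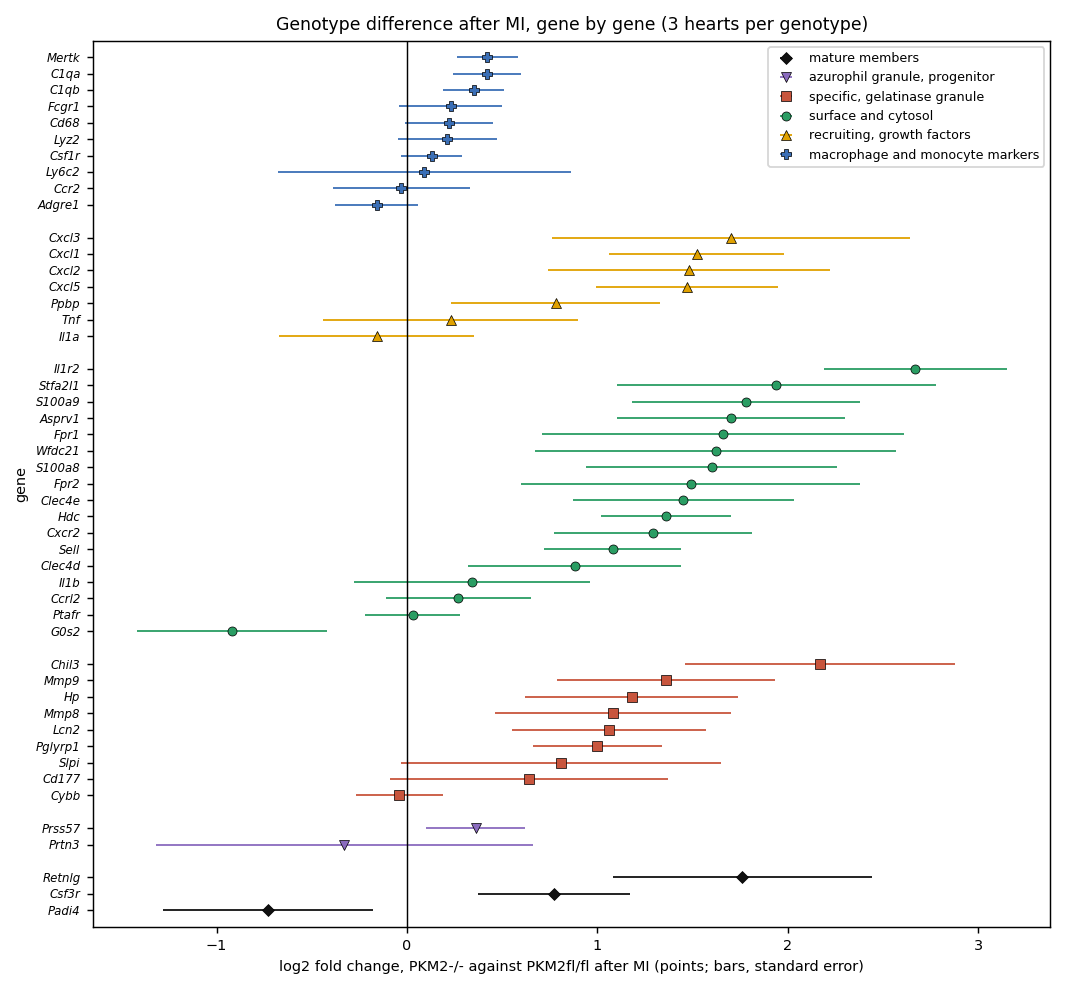
Log2 fold change of PKM2-/- against PKM2fl/fl hearts after MI (horizontal axis; points, estimates; bars, standard errors; 3 hearts per genotype) for each tested member, neutrophil list gene and macrophage marker. Most surface and cytosolic genes lie between 0.88 and 2.67, the macrophage markers lie between -0.16 and 0.42, and Il1r2 alone passed the test.

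The infarct effect was then compared between genotypes with the interaction term, which uses the sham hearts as well. It was log2 0.39 ± 0.57 SE for Csf3r (limma adjusted p = 0.882), 0.75 ± 0.97 SE for Retnlg (limma adjusted p = 0.868) and -0.59 ± 0.77 SE for Padi4 (limma adjusted p = 0.868). No gene in the table passed this test by limma (0.0% of 20576), while 1703 had an unadjusted p under 0.05, and edgeR with its filter called none as well and DESeq2 called 34. The sham hearts did not differ between genotypes past the test either, with Csf3r at log2 0.38, Retnlg at 1.02 and Padi4 at -0.13 (limma adjusted p = 0.845, 0.701 and 0.978), and 1 gene (0.00486%) was called in the whole table. Without the third PKM2fl/fl sham heart the differences of Csf3r and Retnlg were -0.22 and -0.09. At baseline, with 2 hearts per genotype, the 3 members differed by log2 0.02, -0.13 and -0.36 in the same order (limma adjusted p = 1 for each), against 0.00972% of genes called.

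Sham surgery was also set against baseline. This contrast was chosen with earlier results of these data known, so its calls describe these hearts and are not independent evidence. In PKM2-/- hearts Retnlg rose 14.4-fold (log2 3.84 ± 0.77 SE, limma adjusted p = 0.0102) and Csf3r rose 4.35-fold (log2 2.12 ± 0.45 SE, limma adjusted p = 0.0135), against 2.66% of tested genes called. Padi4 was at log2 0.47 ± 0.61 SE (limma adjusted p = 0.763). These calls rest on 2 baseline hearts, and leaving out the second ended both (limma adjusted p = 0.0787 for Retnlg and 0.145 for Csf3r), while leaving out the first ended that of Retnlg (limma adjusted p = 0.0538).

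In PKM2fl/fl hearts the same contrast gave log2 2.70 ± 0.77 SE for Retnlg (limma adjusted p = 0.186), 1.77 ± 0.45 SE for Csf3r (limma adjusted p = 0.137) and 0.24 ± 0.61 SE for Padi4 (limma adjusted p = 0.982), against 0.17% of genes called. All 3 sham hearts lay above both baseline hearts for Retnlg and Csf3r, as was the case for 17.4% of all tested genes. DESeq2 called both (adjusted p = 0.00204 and 0.0183), as did scaling to library totals. Without the third sham heart both rose, Retnlg by log2 3.81 (limma adjusted p = 0.00133) and Csf3r by 2.36 (limma adjusted p = 0.00313). In this contrast 2.66% of all tested genes were called in PKM2-/- and 0.17% in PKM2fl/fl hearts. Among the surface and cytosolic genes 8 of 17 rose after sham surgery in PKM2-/- and 1 of 17 (Clec4e, 14.2-fold) in PKM2fl/fl hearts, and the chemokine Cxcl5 rose in both, 16.4-fold and 8.53-fold. Macrophage markers moved with it, 3 of 10 past the test in PKM2-/- and 0 of 10 in PKM2fl/fl hearts, and their part was not tested.

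The members did not all vary together from heart to heart. Over the 16 libraries, on the log2 scale, Pearson's r was 0.77 between Csf3r and Retnlg, 0.81 between Csf3r and Padi4, and 0.37 between Retnlg and Padi4. With group means subtracted, which leaves the differences between hearts of 1 group, r was 0.80, 0.32 and 0.22. These libraries share a depth and a tissue composition for all genes, and the values are a description.

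The genes whose pattern was most like the mean of the 5 mature members, among 20573 other genes, were Il1f9 (r = 0.972), Mmp8 (0.964), Adgrd1 (0.960), Cxcr2 (0.959) and Osmr (0.955) over 16 libraries. Il1f9 encodes interleukin-36 gamma, Mmp8 the collagenase of specific granules, and Osmr the oncostatin M receptor. With group means subtracted they were Fyb (0.911), Rpl36a-ps2 (0.904), Il6st (0.902), Mir6363 (0.883) and Lcp2 (0.881). Fyb and Lcp2 encode adapter proteins of leukocyte receptors. The genes most like the mean of the 5 early members were Gm29103 (0.863), Agfg2 (0.858), Btg2 (0.829), Grasp (0.828) and Tnip2 (0.821), with group means subtracted Rab43 (0.933), Rprd1a (0.904), Agfg2 (0.898), Gem (0.896) and CAAA01147332.1 (0.882). The early mean is made of values near the floor of 3 reads.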

How the data were processed

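RNA of 16 left ventricles went through rRNA depletion and paired-end sequencing. Per the labels and the study's methods, the authors cleaned reads with PRINSEQ, used HISAT2 for alignment to mm10, took gene counts from featureCounts and scaled them by DESeq2 size factors (versions and strand setting not given in the sources used here). The deposited table holds these normalized counts, a signal that is never negative. Its further columns hold the authors' own baseline comparison (a log2 fold change, its standard error, a Wald score and p-values) and were not used. Each value was a whole multiple of the value of 1 read within 0.01 in 100% of cases, so read counts were recovered for edgeR 4.0.16 and DESeq2 1.42.0, the alternatives.

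The main test was limma 3.58.1 (R 4.3.3) with an intensity trend on log2(normalized count + 1), with the 6 groups in 1 model over 16 libraries, for 20576 genes whose mean was 10 or more. Adding 1 understates the fold change of low genes. A gene was called at a Benjamini-Hochberg adjusted p under 0.05 and a change of at least 2-fold. Log2 changes are given with their standard error, and p-values are two-sided. The script was tested on simulated data. No libraries were identical, and 0 columns were without a sample. Libraries are separate hearts, and no batch was named in the labels.

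The members and gene lists were chosen with earlier results of these data known. Named genes were Pkm, the members, up to 4 genes per list with the smallest p in MI against sham in PKM2fl/fl, list genes called between genotypes and the 5 genes of most like pattern. S100a8, S100a9, Cxcr2, G0s2, Ccrl2, Ctsg, Lcn2 and Pglyrp1 fall outside this rule and were named after their values were seen. The first 3 are in the marker list. Exon lengths came from GENCODE M39 (GRCm39) and promoter windows from RefSeq (GRCm38.p6).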

Additional observations from a re-analysis of the deposited data

How the results depend on the processing

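Csf3r and Padi4 were called for MI against sham in both genotypes under every scaling, pseudocount, filter, model and count method tried and without any 1 library. Retnlg joined them in PKM2fl/fl hearts, lower after MI, by edgeR without a filter and without the third sham heart. The genotype results are less firm, because 3 hearts per group leave intervals wider than 2-fold and the early genes lie near the floor of 3 reads. Scaling to library totals moved the median of all genes by log2 0.36 between genotypes after MI, -0.326 after sham surgery, -0.589 at baseline and 0.676 in the interaction, and by 0.522 for MI in PKM2-/- hearts, where the share of calls that were higher went from 50.2 to 78.4%. For PKM2-/- against PKM2fl/fl after MI it called 1 member (Retnlg), edgeR without a filter called 2, and the other settings none. edgeR without a filter gave an infinite prior df, that is 1 spread for all genes, against 5.6 with its filter.

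Counts of all genes called were 85 between genotypes after MI in the main model, 6 with only the groups compared, 508 by edgeR without a filter and 271 by DESeq2. After sham surgery the count was 1, against 114 with library totals, 0 without a filter, 9 with only the groups compared, 305 by edgeR without a filter and 111 by DESeq2. At baseline it was 2, against 44 with library totals, 9 with a pseudocount of 0.1, 46 with only the groups compared, 1 by edgeR with its filter, 157 without and 16 by DESeq2. The interaction gave 0, against 52 with library totals, 304 by edgeR without a filter and 34 by DESeq2. Sham against baseline gave 35 in PKM2fl/fl, against 94 with library totals, 1 with only the groups compared, 22 by edgeR with its filter, 487 without and 238 by DESeq2, and the members called there were 2 with library totals, edgeR without a filter and DESeq2. In PKM2-/- hearts edgeR without a filter gave 939 against 548. The cause of these differences was not tested.

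Same-numbered hearts of different groups showed no common deviation (median r -0.027 over 36 pairs, 1 of them over 0.1). Different-numbered hearts gave a median r of 0.013 over 70 pairs. No pairing by replicate number was seen, but so few hearts per group cannot exclude it. The replicate block gave 46 genes between genotypes after MI, 0 after sham surgery, 1 at baseline and 23 for sham against baseline in PKM2fl/fl, and it changed no call of a member.

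Leaving out 1 library gave 11 to 634 genes between genotypes after MI, 0 to 50 after sham surgery, 0 to 40 at baseline, 0 to 227 in the interaction, 7 to 212 for sham against baseline in PKM2fl/fl and 242 to 618 in PKM2-/-, where members called ran from 0 to 2 in both genotypes. The early minus mature difference then ran from -1.59 to -1.46 at baseline, -2.9 to -2.45 after sham surgery and -4.23 to -3.42 after MI in PKM2fl/fl, and from -2.36 to -1.42, -3.12 to -1.81 and -3.92 to -2.6 in PKM2-/-. With a pseudocount of 0.1 it was -1.97, -3.43 and -4.72 in PKM2fl/fl and -2.94 at baseline in PKM2-/-.

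Signs turned for small differences. Without 1 library, log2 differences ran from -1.55 to 0.26 for Retnlg after MI in PKM2fl/fl and from -0.12 to 0.61 for Padi4 after sham surgery there. Between genotypes after MI they ran from -1.17 to 0.07 for Padi4, -1.1 to 0.07 for Prtn3, -0.25 to 0.21 for Cybb and -0.05 to 0.16 for Ptafr. After sham surgery they ran from -0.09 to 1.71 for Retnlg, -0.22 to 0.8 for Csf3r and -0.44 to 0.22 for Padi4, and at baseline from -0.57 to 0.31, -0.52 to 0.55 and -0.72 to 0.01. In the interaction Csf3r ran from -0.04 to 0.99 and Padi4 from -1.04 to 0.21. With library totals, Prtn3 was 0.01 and Cybb 0.32 between genotypes after MI, Csf3r was -0.56 at baseline and Padi4 0.08 in the interaction. At baseline Csf3r was -0.02 by edgeR with its filter and -0.03 by edgeR without and by DESeq2. Il1r2 lost its call with only the groups compared (adjusted p = 0.0873), and Cd177 in PKM2-/- hearts lost its call without the third sham heart or the first MI heart (limma adjusted p = 0.0763 and 0.0829).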

Other observations

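The table held 1 further gene, for a growth factor that acts on the neutrophil line, that stood apart by eye and was chosen after its values were seen. Csf3, the growth factor that Csf3r binds, had 29.2, 6.4 and 8.7 normalized counts in the PKM2-/- MI hearts, 3.1, 0 and 3.7 in the PKM2fl/fl MI hearts and at most 2.6 in the other 10 libraries. It was below the filter on low values and was not tested in the main model.

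The third PKM2fl/fl sham heart stood near baseline for other neutrophil genes as well. S100a8 had 326.7 and 312.1 normalized counts in the first and second sham hearts and 36.3 in the third, against 6.3 and 27.9 at baseline, and Cxcr2 had 87.0, 98.5 and 15.7. That library held the most reads of all, 71855101. The third PKM2fl/fl MI heart, which held the highest Padi4 and Prtn3 values, also had the lowest Myh6 (the main myosin heavy chain of heart muscle) of all 16 libraries, 46178 normalized counts against 137875 and 134794 in the other PKM2fl/fl MI hearts.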
